A study of Mus musculus with 3 samples.

Results

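The 10 genes described here encode NF-kB transcription factors and proteins that regulate or accompany them: the subunits Nfkb1, Nfkb2, Rel, Rela and Relb, the IkB family members Nfkbia, Nfkbiz and Bcl3, the deubiquitinase Tnfaip3 and the repressor Bcl6. They were taken by name from 21826 protein-coding genes and measured as accessible chromatin (ATAC) in 3629 long-term HSCs (LT-HSCs), stem cells that can rebuild the blood of a transplanted host over a long time. They were sorted by flow cytometry from c-Kit enriched marrow of 24-month-old females of wild-type genotype, and all cells share this age and genotype. DOGMA-seq, a droplet assay of chromatin, RNA and surface antibodies in single cells, gave 3 libraries, 1 per assay, of 1 pool. There was thus 1 sample and no replicate spread, no test was run, and all intervals are exact 95% intervals that cover counting error only. Cells were kept if they carried at least 10 antibody tags over 12 antibodies. Each kept cell had a median of 10287 nuclear ATAC fragments (range 3853 to 45069), and the 38498362 fragments of all kept cells are the depth behind every level below. RNA of these genes and cells of young mice were not analysed here, so the values describe how open each gene was and not how much of it was transcribed.

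NF-kB proteins are dimeric transcription factors that bind kappaB sites in DNA. In resting cells IkB proteins hold most dimers in the cytoplasm, and signals from cytokine and pathogen receptors lead to degradation of IkB and entry of the dimers into the nucleus. Among the genes they then induce are their own inhibitors, such as Nfkbia and Tnfaip3, which end the response. In hematopoietic stem cells the pathway is known for its part in the response to inflammation and in ageing.

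Matches to the kappaB consensus, searched on both strands, stood in the promoter sequences of several members. RefSeq promoter sequences (GRCm38.p6, 250 bases before to 50 after the start) were matched for 7 members, Nfkb2, Rel, Rela, Nfkbia, Tnfaip3, Bcl3 and Bcl6, and for 16514 protein-coding genes in all. Of the 7 members, 5 held at least 1 match, and 787 of all 16514 promoters, 4.77%, did. At least 2 matches stood in 0.557% of all promoters and in 3 members, Nfkb2 with 3 and Rel and Tnfaip3 with 2 each. In Nfkb2 and Rel, 2 of these overlapped by all but 1 base on opposite strands and read as 1 longer stretch. Rela and Bcl6 had none, which says only that these letters were not in this window. Stretches that hold the matches, except the third match of Nfkb2, which is not shown, are given 5′ to 3′ on the strand of the gene, with the matching bases in capitals, because they are the sequences through which members could be targets of their own pathway. No binding was measured.
Nfkb2, chr19:46304692-46304721, plus strand, within the 5′ UTR of a longer annotated transcript: cgtcacGGGAATTCCCCccctcggggggcc
Rel, chr11:23770970-23771119, minus strand: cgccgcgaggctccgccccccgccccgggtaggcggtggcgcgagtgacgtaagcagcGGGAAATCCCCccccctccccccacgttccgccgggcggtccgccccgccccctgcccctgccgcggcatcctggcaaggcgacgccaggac
Nfkbia, chr12:55492648-55492797, minus strand: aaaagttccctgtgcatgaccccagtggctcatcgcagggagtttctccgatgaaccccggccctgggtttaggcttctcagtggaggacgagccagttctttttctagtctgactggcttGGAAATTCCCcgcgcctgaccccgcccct
Tnfaip3, chr10:19015411-19015547, minus strand: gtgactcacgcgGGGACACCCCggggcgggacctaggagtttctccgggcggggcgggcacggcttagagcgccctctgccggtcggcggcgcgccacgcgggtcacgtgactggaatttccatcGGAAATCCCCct
Bcl3, chr7:19822744-19822815, minus strand: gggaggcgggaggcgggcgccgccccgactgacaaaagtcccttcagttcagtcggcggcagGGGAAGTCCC

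The match in Bcl3 lay closest to the start and began at the third base of the transcript. In Nfkb2 the third match began 11 bases upstream of the start, and in Tnfaip3 the second began 12 bases upstream. The Nfkbia match began 29 bases upstream, the stretch in Rel 92 bases upstream, and the first Tnfaip3 match 125 bases upstream. The median ratio of observed to expected CpG was 0.813 over the 7 members and 0.597 over all promoters. It was above 0.6 in 6 of the 7, as in 49.8% of all promoters, and Nfkbia at 0.539 was below. Searched instead over 500 bp each side of the most accessible annotated start, 9 of 10 members held a match, all but Bcl6, against 15.8% of all genes.

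All 10 members were more accessible than the median protein-coding gene when fragments were counted over the gene body plus 2 kb upstream and divided by that length. The level is given as FPM per kb, where FPM stands for fragments per 1000000 nuclear fragments, and the median over all genes was 0.822. Nfkbia (chr12:55489410-55492647, mm10), whose product IkB-alpha is the main cytoplasmic inhibitor, was highest at 11.8 (11.3 to 12.2), above 98.7% of genes. Nfkb2 (chr19:46304320-46312385), which encodes p100 and p52 of the noncanonical arm, followed at 7.39 (7.12 to 7.67). A group of 4 members came next with intervals that overlapped from each to the following one. They were Rela (chr19:5637483-5648130), the activating canonical subunit, at 5.11, and Bcl3 (chr7:19808462-19822770), a nuclear IkB protein that acts with p50 and p52, at 5.03. Bcl6 (chr16:23965052-23988852), a transcriptional repressor, stood at 4.96, and Relb, the noncanonical partner of p52, at 4.81. Nfkbiz, an inducible nuclear IkB protein, was at 4.09, and Tnfaip3 (chr10:19000910-19015657), which encodes the ubiquitin-editing inhibitor A20, at 3.58. The lowest were Rel (chr11:23736847-23770970), which encodes c-Rel, at 1.83 and Nfkb1 (chr3:135584655-135691547), which encodes p105 and p50, at 0.921. Nfkb1 was above 53.2% of genes. These last 2 have the longest windows of the 10, 36.1 kb for Rel and 108.9 kb for Nfkb1, and the level per kb averages over all of it. The 2 highest, Nfkbia and Nfkb2, have the shortest windows, 5.24 kb and 10.1 kb. Before division by length Nfkbia had 2371 fragments and Nfkb1 3861.

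The order at promoters was different. A promoter was taken as 500 bp each side of the annotated start with most fragments, chosen in the same way for every gene, and its level is in FPM. Of the members, 9 were above the median of all promoters (9.48 FPM), and 8 were above at least 75% of them. As a level for closed chromatin, the median over 1133 olfactory receptor promoters was 0.0260.

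Relb had the most open promoter, at 77.9 (75.1 to 80.7), and 53.6% of cells had at least 1 fragment there. It was above 99.1% of promoters. Nfkbiz at 49.7, Rel at 49.3, Rela at 48.8 and Tnfaip3 at 45.1 came next, and 36.5% to 38.3% of cells had a fragment at each. With Bcl6 at 41.8 they formed a run in which each interval overlapped that of the following gene. The intervals of Nfkb2 at 36.5 and Nfkbia at 33.0 overlapped as well. The places of these last 2 depended on the width: with 1 kb each side of the start Nfkbia was at 58.1 and Nfkb2 at 56.9, near Rel at 57.6 and below Relb at 96.3. Nfkb1 was lower at 20.9, with 18.4% of cells. Bcl3 was the exception, at 7.84 (6.98 to 8.78) and in 7.58% of cells, below the median of all promoters although its gene level was above 92.3% of genes. The 5 subunits thus ranged from 20.9 (Nfkb1) to 77.9 (Relb) at their promoters, and Rel, in place 3 by promoter, was in place 9 by gene level.

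**Figure D1:**
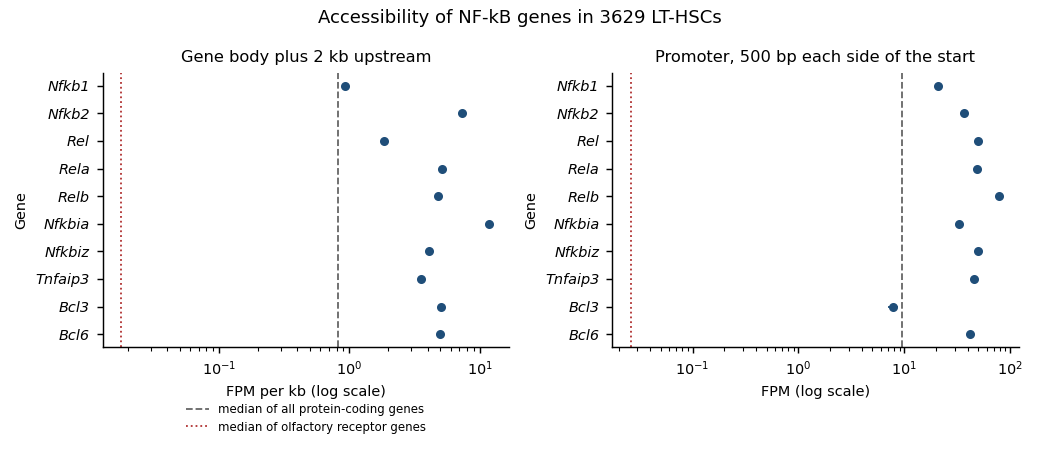
The left panel plots FPM per kb over gene body plus 2 kb upstream and the right panel FPM at the promoter, both on log axes, 1 point per gene, with exact 95% Poisson intervals that are mostly smaller than the points. All 10 genes lie to the right of the dashed median of all genes (0.822) in the left panel, while Bcl3 at 7.84 lies to the left of it (9.48) in the right panel.

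The window of 1 kb at the promoter held very different parts of each gene's fragments. It took 75.5% of those of Rela, 75.2% of Tnfaip3 and 74.5% of Rel, but 20.8% of Nfkb1 and 9.56% of Bcl3. Fragment lengths differed as well. At Relb, 64.7% of promoter fragments were shorter than the DNA wrapped on a nucleosome, with a median of 93 bp, and at Nfkb1 27.1% were, with a median of 222 bp.

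Insertions of the transposase, counted per 50 bp within 2 kb of the start, had their highest point at different places. At Tnfaip3 the highest bin lay 125 bp upstream of the start, near the first kappaB match printed above. It had 18.3 insertions per 1000000 fragments and held 18.3% of all insertions in those 4 kb. At Nfkb2, Rel, Nfkbia and Bcl3 the highest bin lay farther from the printed matches. At Rela and Nfkbiz it lay 75 bp upstream, at Rel 175 bp and at Nfkb2 225 bp upstream. At Nfkbia the highest bin lay 625 bp inside the gene, at 17.1, and 84.9% of insertions were downstream of the start. At Relb the highest lay 425 bp upstream of the start used, and 9.13% of insertions were downstream. At Bcl3 it lay 1625 bp upstream.

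**Figure D2:**
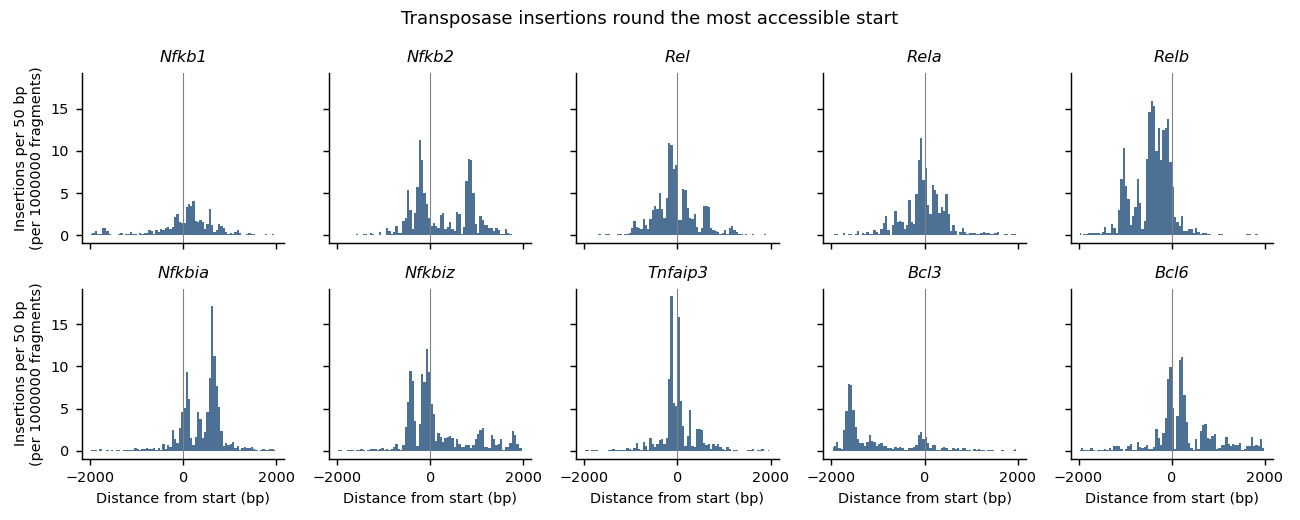
Transposase insertions per 50 bp and 1000000 nuclear fragments are plotted against distance from the most accessible annotated start in bp, negative upstream, 1 panel per gene on a shared axis. Tnfaip3 peaks 125 bp upstream at 18.3, Nfkbia 625 bp inside the gene at 17.1, and Bcl3 1625 bp upstream at 7.92 with little at the start itself.

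At 3 members the most accessible start and the 5′ end differed beyond the counting interval. For Nfkb2 the difference was small, with 1406 fragments at a start 480 bp inside the gene against 1209 at the 5′ end. At Nfkbiz (chr16:55811375-55838899, minus strand) the most accessible start lay 16761 bp inside the gene, where 1914 fragments were counted against 675 at the 5′ end. At Relb (chr7:19606217-19629438, minus strand) it lay 965 bp inside, with 2999 fragments against 1706. The accessible region of Relb runs over both starts as 1 open site. At the 5′ ends all 10 members, Bcl3 included, were above the median of all genes.

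Open sites, called from the pooled fragments of the kept cells, showed where else each locus was open. The genome held 71380 sites with a median of 148 fragments each, and 68 were nearest to a start of a member. Nfkb1 had 16 sites, Tnfaip3 14, and Nfkbia and Nfkbiz 10 each, while the median gene had 2 and 4.93% of genes had 10 or more. Bcl3 had 6 and Nfkb2 4. Rel, Rela, Relb and Bcl6 had 2 each. The genes with many sites and those with few were thus divided within the subunits, between Nfkb1 and the other 4. These counts rest on the nearest start within 100 kb. Inside the gene windows Nfkb1 had 8 sites, Bcl6 6, Bcl3 4 and Nfkbiz 3. Nfkb2, Relb and Tnfaip3 had 2 each there, and Rel, Rela and Nfkbia 1 each, so the order of the genes was different.

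The promoter site of Relb (chr7:19628401-19629600) was the most open of all these sites, with 100.6 FPM (97.5 to 103.8), in 61.9% of cells and above 99.9% of sites in the genome. The promoter sites of Nfkb2 at 57.8, Rel at 56.8, Nfkbia at 56.3 and Rela at 52.8 were above 97.7% to 98.3% of sites. That of Nfkb1 (chr3:135690601-135692000) reached 24.6.

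Sites over 1 kb from any start of the gene, called distal here, held 62.4% of the site fragments of Nfkb1, 59.2% of Tnfaip3 and 47.2% of Nfkbia. At Rel they held 5.21%, at Relb 9.57% and at Bcl6 3.67%. The Bcl6 share leaves out the sites of its window that were assigned to an overlapping gene, as given below. Apart from that of Bcl3, the strongest distal site was that of Tnfaip3, 28143 bp upstream and intergenic (chr10:19043401-19044200), with 13.5 FPM. The strongest distal sites of Rela (11.8), Nfkbiz (11.3), Nfkbia (11.2) and Relb (10.6) were close to it. The Rela site (chr19:5648601-5649600) lay just past the 3′ end of the gene, and the Nfkbiz site 67588 bp downstream of its start.

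Bcl3 differed from the other 9 in that 93.6% of its site fragments were distal. Its promoter site (chr7:19822701-19823000) had 231 fragments, whereas an intergenic site centred 1430 bp upstream (chr7:19823701-19824700) had 914 (23.7 FPM, in 21.1% of cells) and 2 sites inside the gene had 912 and 718. No other member had a distal site above its promoter site. The 1430 bp site held 1 kappaB match, shown with 50 bases on each side because it is the main open site of this gene outside its body. The distal Rela site held 1 as well.
Bcl3 upstream site, chr7:19824306-19824415, plus strand: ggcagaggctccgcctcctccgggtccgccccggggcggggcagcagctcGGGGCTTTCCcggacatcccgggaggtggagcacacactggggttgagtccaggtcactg
Rela distal site, chr19:5648896-5649005, plus strand: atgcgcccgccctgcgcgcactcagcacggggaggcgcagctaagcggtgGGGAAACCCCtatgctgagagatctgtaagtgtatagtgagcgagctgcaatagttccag

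Of the 68 sites, 17 (25%) held a match, among them 8 of the 56 distal ones (14.3%). Over all sites of the genome 8.29% did. Since long sites hold more matches by length alone, the share was also taken over all genome sites of the same width as each member site, which averaged 9.43% for the 68 and 7.24% for the distal ones.

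Bcl6 needs a reservation. Its gene window overlaps Gm37419, an annotated protein-coding gene whose starts lie nearer to 5 of the 6 sites inside the Bcl6 window, so these 5 were assigned there. They held 2081 fragments, the strongest 853 at 6402 bp from the Bcl6 start, against 1574 at the promoter site. The windows of Nfkb2, Relb and Nfkbiz overlap Psd, Clasrp and Nxpe3, and fragments in the shared bases counted for both genes.

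**Figure D3:**
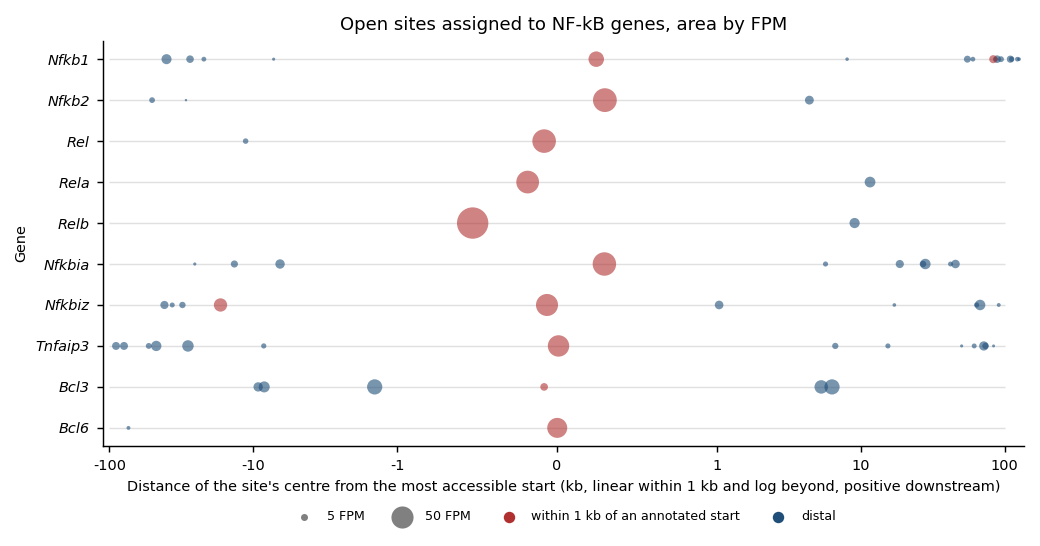
Each circle is an open site assigned to the gene in that row, placed by the distance of its centre from the most accessible start in kb (linear within 1 kb, log beyond), with area proportional to FPM, red within 1 kb of any annotated start and blue farther away. Relb has the largest circle (100.6 FPM), and Bcl3 is the only row whose blue circles (up to 23.7) exceed its red one (6.00).

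Most cells had fragments at several members. A median of 3 of the 10 promoters had at least 1 fragment in a cell, 3.22% of cells had none, 20.1% had 5 or more, and the most in a cell was 8. With each cell thinned to 6000 fragments, which left out 244 shallower cells, the mean fell from 3.21 to 2.10 and the share with none was 9.69%. No fragment in a cell therefore does not mean a closed promoter.

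At promoters, the wider pathway was open at its signalling genes and less so at its targets. Of 74 further genes of the pathway, 53 had a promoter above the median of all genes, as 9 of the 10 members did. Negative regulators had a median of 40.4 FPM (7 of 8 above the median of all genes), adaptors and ubiquitin ligases 35.7 (17 of 19), IKK and upstream kinases 28.7 (10 of 11), and the other IkB proteins with Nkrf 23.4 (3 of 4). Receptors had 11.9 (8 of 10). The 22 target genes, cytokines, chemokines and adhesion molecules among them, had a median of 5.13, below that of all genes, and 8 of 22 were above it. Over gene body plus 2 kb most targets were above the median gene, and they ranged from above 21.5% to above 99.8% of genes. The kinases ranged there from above 45.9% to above 81.9%, so the order given here is that of promoters only.

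The label of the cells was checked against markers. The promoters of 10 HSC genes had a median of 20.8 FPM, against 0.351 for 6 T cell, 0.494 for neutrophil, 1.35 for macrophage, 1.60 for erythroid, 2.40 for B cell, 3.95 for endothelial and stromal, and 8.55 for megakaryocyte genes. Candidate doublets, 69 cells (1.90%) with more overlapping fragments than their depth gives, were not removed.

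The members were then compared by CD274 (PD-L1), an immune checkpoint ligand, which the study placed on platelet-biased HSCs (PLT-HSCs). Cells with 27 or more CD274 tags (937 cells) were compared with those with 12 or fewer (877 cells). A difference was counted where the log2 ratio of FPM was at least 0.32 in size. No member reached it over gene body plus 2 kb, against 4.26% of the 14800 genes with at least 200 fragments over both groups. Many of those genes had few fragments, and of the 3994 genes within the members' range of fragments 0.476% reached it. All 10 log2 ratios were above 0, with a median of 0.11, whereas 48.8% of all tested genes were above 0 and their median was -0.0036. This count depended on the processing: it was 10 in 2 of 13 alternatives and 6 to 9 in the other 11, with 6 in cells of at least 50 tags and 7 by the centred log ratio, by tags adjusted for the other antibodies, between the outer of 3 bins of cells and when scaled by promoter fragments. Nfkb1 and Bcl6 were above 0 in 6 of the 13 and Nfkbia in 7, while Rel, Relb and Bcl3 were in all 13. Summed over the members there were 894.2 FPM in CD274 high cells and 833.2 in CD274 low cells, a log2 ratio of 0.10 (0.06 to 0.15).

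Relb had 126.8 FPM in CD274 high cells and 110.3 in CD274 low cells, a log2 ratio of 0.20 (0.08 to 0.32). Rela had 67.1 and 59.7 (0.17, 0.01 to 0.33), and Nfkbiz 126.9 and 112.8 (0.17, 0.05 to 0.29). For these 3 the interval left out 0, as it did for 14.4% of all genes tested. The other 7 had intervals that included 0, among them Bcl3 at 0.12, Nfkb2 at 0.12, Tnfaip3 at 0.10 and Rel at 0.07. Nfkb1 at 0.00 (-0.13 to 0.13), Nfkbia at 0.01 (-0.15 to 0.18) and Bcl6 at 0.02 (-0.09 to 0.14) had close to the same level in both groups.

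Of the summed difference, most lay at the promoters, which had 427.8 FPM in CD274 high and 379.4 FPM in CD274 low cells. Relb had 83.0 FPM at its promoter in CD274 high and 68.2 in CD274 low cells, a log2 ratio of 0.28 (0.13 to 0.43). The intervals of Nfkb2 (0.24, 0.02 to 0.46) and Nfkbiz (0.21, 0.03 to 0.40) also left out 0, as did those of 10.2% of all promoters tested, and that of Nfkbia (-0.09, -0.31 to 0.14) did not. Promoters as a whole were slightly higher in CD274 high cells, with a median of 0.03 over 10656 promoters and 57.8% above 0. The median over the 9 members with enough fragments was 0.18, with 8 above 0 and none past 0.32 in size, against 5.56% of promoters tested and 2.06% of those within the members' range of fragments. Bcl3 fell short of 200 fragments and was not counted, with 91 fragments at its promoter in CD274 high and 59 in CD274 low cells, a log2 ratio of 0.48 (-0.01 to 0.98), several times its gene ratio of 0.12. At its narrower promoter site it had 72 and 42 (0.63, 0.06 to 1.22). Of the strongest distal sites of the 10 members, 1 had an interval that left out 0, as did 3 of the 10 promoter sites (Relb, Nfkbiz and Bcl3), against 9.73% of all open sites. It was that of Nfkbiz, with 129 fragments in CD274 high and 84 in CD274 low cells (0.47, 0.07 to 0.89). Of the distal sites whose intervals included 0, the farthest from 0 were those of Bcl6, with 14 and 20 fragments (-0.64, -1.76 to 0.40), and Rel, with 38 and 26 (0.39, -0.35 to 1.18).

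Across 4 bins of CD274 tags with 877 to 937 cells each, most of the difference stood between the lowest bin and the rest. The members' summed gene level was 833.2, 879.4, 907.2 and 894.2 FPM from the lowest to the highest bin. The summed promoter level was 379.4, 409.7, 424.2 and 427.8. The Relb promoter had 68.2, 80.7, 79.1 and 83.0. Nfkbiz differed in its step, with promoter levels of 46.0, 46.6, 52.4 and 53.3, and Rel had 45.3, 45.8, 54.1 and 51.5. At these promoters the intervals of neighbouring bins overlapped in both genes. Over gene body plus 2 kb those of bins 2 and 3 did not, with 111.7 and 130.6 FPM for Nfkbiz and 59.1 and 71.5 for Rel. Nfkb1 at 21.4, 19.98, 20.6 and 21.5 and Nfkbia at 33.5, 34.9, 32.3 and 31.5 showed no such step beyond their intervals.

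**Figure D4:**
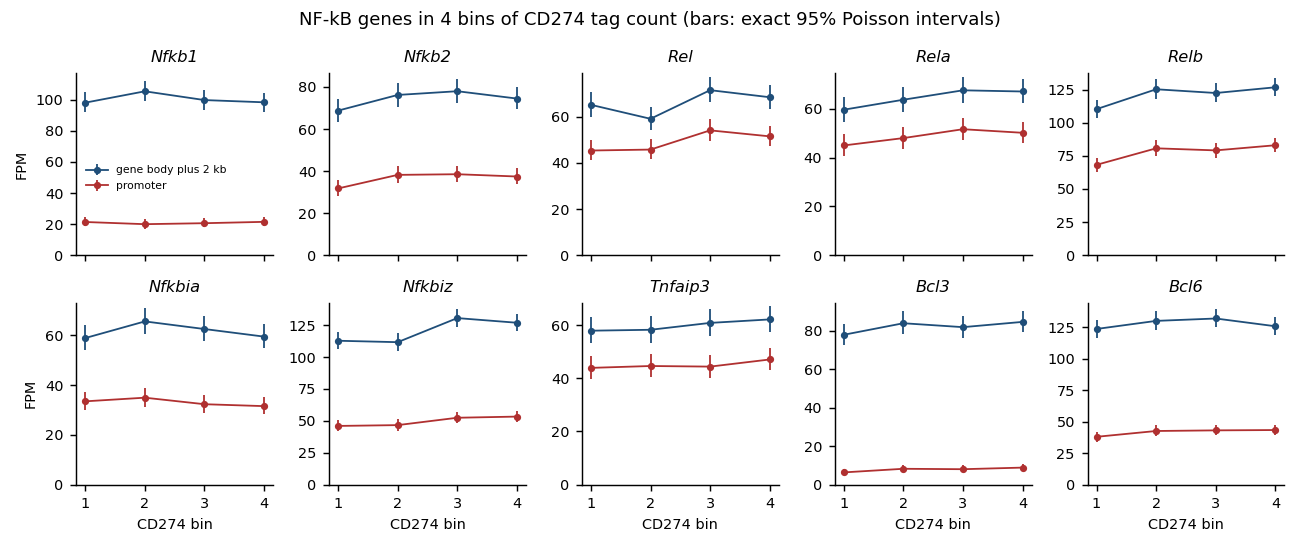
FPM over gene body plus 2 kb (blue) and promoter (red) are plotted for the 4 bins of CD274 tag count from lowest to highest, 1 panel per gene with its own axis from 0, with exact 95% Poisson intervals as bars. The Relb promoter is at 68.2 FPM in the lowest bin and between 79.1 and 83.0 in the others, and Nfkb1 stays between 19.98 and 21.5.

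Other measures also differed between the CD274 groups. Median ATAC fragments were 10296 and 10472 and median RNA UMIs 1983 and 2053 in CD274 high and low cells, and the mean sum of the other antibodies was 12.5 and 8.61. Candidate doublets made up 4.48% and 1.14%, and without them the members' summed ratio was 0.10 (0.05 to 0.14). Over gene windows, the 6 macrophage markers together had 181.7 FPM in CD274 high and 160.8 in CD274 low cells (0.18, 0.08 to 0.27), and the 6 erythroid markers 81.2 and 92.6 (-0.19, -0.33 to -0.05). The intervals of the 10 HSC markers (0.03) and of the other 5 marker lists included 0, and no marker of any list was at 0. The part of macrophage and erythroid genes in the members' ratios was not tested.

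Of the 74 further pathway genes, 64 had at least 200 fragments over both CD274 groups, and 4 reached 0.32 in size, all higher in CD274 high cells (6.25%, against 4.26% of all genes). They were Tlr4, the receptor for bacterial lipopolysaccharide, with 28.4 and 18.8 FPM (log2 0.59, 0.32 to 0.87), Ccl4, a chemokine, at 0.52 (0.12 to 0.93), Birc3, a ubiquitin ligase of TNF receptor signalling, at 0.43 (0.21 to 0.64), and Traf6, which carries signals from Toll-like and IL-1 receptors, at 0.34 (0.06 to 0.61). The median over the 64 genes was 0.07. It was highest for the 12 targets tested, at 0.13, and -0.0013 for the 11 kinases.

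For the other 11 antibodies the intervals of the members' summed ratio included 0. High and low cells were again those nearest to the outer 25% on each side where tag counts allowed, and for the sparser antibodies cells with and without a tag. For CD61, an integrin on platelets and their precursors, no member reached 0.32 in size, against 3.39% of all genes, and Rela at 0.16 and Bcl3 at 0.13 were the highest with intervals that included 0. No member reached it for CD357 (2.04% of all genes), CD27 (1.66%), MERTK (2.74%), P2X7R (1.21%), CD201 (1.35%), CD106 (1.54%), CD68 (7.44%), CD183 (9.5%) or CD206 (25.5%). For CD163, with 71 cells that had a tag, Rel reached it, at -0.40 (-0.93 to 0.05), against 28.8% of all genes. In the 7 most abundant of the 11, CD61 to CD106, the summed ratio of the members lay between -0.03 and 0.03. With tags adjusted for the sum of the other antibodies, 6 of the 11 had summed intervals that lay below 0, and the ratio of CD274 was 0.09 (0.05 to 0.13). The 6 were CD163 at -0.09 (-0.13 to -0.05), CD68 at -0.09 (-0.13 to -0.04), CD206 at -0.09 (-0.13 to -0.05), CD183 at -0.08 (-0.12 to -0.04), MERTK at -0.06 (-0.10 to -0.01) and CD27 at -0.05 (-0.10 to -0.01). Since 1.96% to 7.74% of cells carried a tag of the first 4, the adjustment there orders mostly cells without one, by their other tags. CD274 made up 67.5% of all tags, and so most of the sum adjusted for in all 6. Whether these ratios stand apart from that of CD274 was not tested.

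Over the 12 antibodies, 11 of 120 intervals (9.17%) left out 0, close to the share over all genes tested (7.55%), and 3 of the 11 were those of CD274. Relb was also higher with CD201, the endothelial protein C receptor, at 0.12 (0.03 to 0.20), and with CD106 (VCAM-1) at 0.10 (0.00 to 0.19). Rel was at 0.17 (0.05 to 0.29) with CD201. Nfkbia was lower in CD27 high cells, with 58.5 FPM against 65.2 (-0.15, -0.31 to -0.00). Nfkb1 was lower (-0.24, -0.45 to -0.04) and Nfkb2 higher (0.22, 0.00 to 0.42) in the 225 cells with a CD183 tag. Nfkbiz was lower with CD201, at -0.09 (-0.19 to -0.00), and higher in the 82 cells with a CD206 tag, at 0.30 (0.02 to 0.54). No member had the same sign in all 12. Among all genes tested, the interval left out 0 in 7.61% for CD201, 6.51% for CD106, 7.07% for CD27, 5.88% for CD183 and 5.61% for CD206.

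The marker combinations of the study's gates were rebuilt in tag counts, with the median of each antibody as the cut, a choice made here. The PLT gate held 342 cells whose CD61 and CD274 counts exceeded the median while CD357 and CD27 did not, and the gate for multi-lineage HSCs (MUL-HSCs) held 61 cells with the reverse pattern. Of the members, 4 reached 0.32 in size, against 20% of the 6443 genes with at least 200 fragments. Bcl3 had 86.4 FPM in the PLT gate and 53.3 FPM in the MUL gate, a log2 ratio of 0.68 (0.17 to 1.27), and only its interval left out 0, against 6.6% of all genes tested. Nfkbia was at 0.40 (-0.14 to 1.03), Rela at -0.37 (-0.81 to 0.13) and Tnfaip3 at -0.38 (-0.84 to 0.13). The summed members had 899.8 and 881.1 FPM, a log2 ratio of 0.03 (-0.10 to 0.17). The MUL gate held 32 Bcl3 fragments. The gates themselves depended on the scale of tags: by the centred log ratio the MUL gate held 252 cells, 1 member was past 0.32 in size (Nfkbia, 0.33) and Bcl3 was at 0.28. Without candidate doublets the medians were taken anew, and the MUL gate then held 91 cells. None of the 61 cells was itself a candidate doublet (0%), so the gate changed with its cut points. Again 1 member was past 0.32 in size (Bcl3, 0.52).

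**Figure D5:**
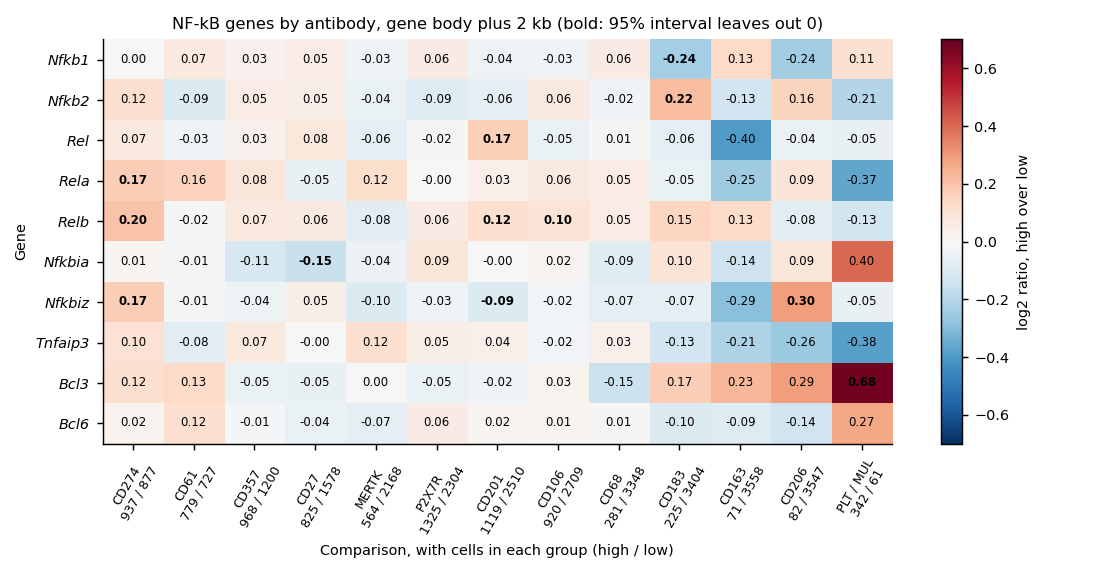
Cells of the grid give the log2 ratio of fragments over gene body plus 2 kb in cells high over cells low for each antibody, and in PLT-gated over MUL-gated cells in the last column, with the number of cells in each group under the name and bold where the exact 95% interval leaves out 0. The CD274 column has all 10 values above 0 (0.00 to 0.20) with these groups of cells, against 6 to 10 in the alternatives, and the strongest colours stand in the columns with few cells, CD163 and the gate.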

How the data were processed

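Per the labels and file headers, Cell Ranger ARC 2.0.2 with mm10 was run by the authors on the ATAC and RNA reads. It called cells on both assays, merged duplicates and moved fragment ends to the transposase cut. Deposited were counts that were not normalized: fragments with their barcode, totals per barcode, and antibody tags per barcode (counted by the authors with CITE-seq-Count, version not given in the sources used here). No peak list was used, so open sites were called here. The members and lists were chosen with earlier results of these data known.

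Of 3724 barcodes with antibody counts, 95 had under 10 tags and were left out. Doublets were not removed. Candidates were cells with an excess of autosomal 1 kb windows that at least 3 fragments (900 bp or shorter) covered, for their depth (Poisson regression, adjusted value below 0.01). Genes came from GENCODE M21. Fragments overlapping a window were scaled by nuclear fragments. Sites were runs of 100 bp bins above the larger of the genome mean and the local 10 kb mean (Poisson tail, adjusted value below 1e-04), joined across up to 200 bp, at least 200 bp wide, and assigned to the nearest protein-coding start within 100 kb.

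Cells high and low in an antibody were those beyond the whole counts nearest to the outer 25%. Ratios had 0.5 added to each count, intervals were exact conditional binomial, and genes with at least 200 fragments over both groups counted as different at a log2 ratio of 0.32 or more in size. Named were all members, their promoter and strongest distal sites, and up to 6 wider pathway genes past that size with the largest change. Sites inside the Bcl6 window were named after their values were seen. Sequences came from RefSeq and GRCm38.p6.

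The ratio was tested on simulated data: of 199 genes changed 1.5-fold at the depth of the CD274 groups, 98.0% were past that size in the right direction, as were 1.29% of unchanged genes in either direction, and 95.3% of intervals held the true value. Alternatives changed the cells kept, the scale of tags, the groups, the windows, the scaling, the depth, the filter, the fold and the site threshold. Software was Python 3.11.15 with numpy 2.4.6, pandas 2.3.3, scipy 1.17.1, statsmodels 0.14.6, pysam 0.24.0, samtools 1.23.1 and matplotlib 3.10.9.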

Additional observations from a re-analysis of the deposited data

Results flagged for a closer look

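Barcodes outside the kept cells also carried fragments over the members. In barcodes not called as cells, the members' summed level over gene body plus 2 kb was 735.1 fragments per 1000000 nuclear fragments (2054 of 2794021, 703.7 to 767.6), against 879.1 in the kept cells. In called cells with no antibody count it was 924.1 (1185 of 1282313, 872.2 to 978.3). Both were noticed because these barcodes enter no comparison above and lie far over the limit of 3 counts.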

How the results depend on the processing

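No paired analysis was possible because each assay had 1 sample and the labels carry no replicate numbers. The number of members past a log2 ratio of 0.32 in size by CD274 was 0 in 13 of 15 alternatives and 1 with cells of at least 50 tags (363 cells) and at promoters of 1 kb each side of the 5′ end, Bcl3 in both (0.36 and 0.43). The summed ratio of 0.10 stayed above 0 in the 13 that can change it, which leave out the fold and the filter. It was 0.057 with cells above the median against the rest, 0.17 at promoters of 500 bp and 0.16 at 5′ ends of 1 kb, and within its interval otherwise, its own interval including 0 with cells of at least 50 tags (0.07, -0.06 to 0.20). With at least 50 tags Rela turned to -0.019, Tnfaip3 to -0.16, Nfkb2 to -0.10 and Bcl6 to -0.031, the last 3 from values whose intervals included 0. Nfkbiz turned to -0.12 at its 5′ end, which is not its most accessible start. The median kept cell had 29 tags, and 67.5% of all tags were CD274. Among cells with at least 50 tags the CD274 groups were cut anew, so they are not the groups compared above. The cause with at least 50 tags was not tested. For the other antibodies the number past that size went from 1 to 0 on residual tags and 3 without candidate doublets. For the PLT and MUL gates it went from 4 to 1 by the centred log ratio and 1 without candidate doublets, with the medians taken anew in both. For the wider list it went from 4 to 7 with no filter. Members with a kappaB match went from 5 of 7 to 9 of 10 in the wider window. Counting sites inside the gene windows, chosen after seeing the data, gave 30 in place of 68, since most distal sites lie outside. Of 360 recomputed values, 295 were labelled as held. That meant a count within 1.5-fold of the main one, or a ratio or level inside the main interval. A fall from 10 to 7 members above 0 by CD274 was thus labelled as held. The wider list's counts past the fold in each direction were given that label whatever their value. Gene and promoter levels above the median of all genes were 10 and 9 or 10 in every alternative run. Sparse tags and small gates (61 MUL-gated cells, 252 by the centred log ratio) limit the depth, and neither mice nor pools were replicated.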
